A study of Mus musculus with 2 samples.

Results

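The Hox genes described here are the 39 protein-coding genes of the GENCODE M21 annotation named Hox with a cluster letter and a number, of 21853 protein-coding genes compared. Hoxa held 11 of them, Hoxb 10, Hoxc 9 and Hoxd 9. Their open chromatin was mapped by DNase-seq, in which the enzyme DNase I cuts accessible DNA and the cut sites are sequenced. All tissue came from 2-month-old female mice of the F1 hybrid B6CASTF1/J. Labels call the tissue hippocampus in 1 place and a layer of it in another. The 2 libraries are biological replicates 1 and 2 of the 1 group, with no treated or control group. They carry separate biosample records under 1 donor record, and whether they came from different animals is not stated, so their spread may be technical. The F1 genome carries alleles of both parents, whereas positions are on the C57BL/6J build mm10, and what this does to the values was not tested.

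Hox genes encode homeodomain transcription factors that give cells their position along the head-to-tail axis. They lie in 4 clusters, and the order of genes along a cluster follows the order in which they are used in time and space, with low paralog groups anterior and high groups posterior. Their anterior limit lies in the hindbrain, so forebrain structures such as the hippocampus form outside the Hox domain. In cells that do not use them, Hox clusters are a textbook target of Polycomb repression, and the protein CTCF binds between Hox genes at boundaries of Polycomb and active domains.

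Nearly all Hox promoters lacked a DNase peak in this tissue. A promoter was the window of 1 kb on either side of a transcription start site (TSS), and its value was the highest signal of an overlapping peak, as the authors scaled it to each library. A promoter peak in both libraries was present at 1 of 39 Hox genes, against 59.0% of the 21853 protein-coding genes. In replicate 1 the count was 3 of 39, against 63.4% of all genes. In replicate 2 it was 1 of 39, against 60.4%. In 36 of 39 neither library had a promoter peak.

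Inside the clusters, both libraries shared 9 accessible regions, and 8 of the 9 lay outside Hox promoters. The 6 in which footprints of both libraries overlapped are printed first. They show what DNA is open and protected in clusters where few Hox promoters had a peak. A footprint is a short stretch, within an open region, that is cut less than its surroundings. Each sequence is given 5′ to 3′ on the plus strand of mm10, from the RefSeq GRCm38.p6 assembly, and covers the bases under the peaks of both libraries. Capitals mark bases inside a footprint in both libraries. For the Hoxa7 region, which lies in an untranslated first exon, only 30 bases are given.

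Hoxa7 start site, chr6:52221799-52221828: GAGCCACACTGccatctcctggaattttct
Between Hoxa11 and Hoxa13, chr6:52257061-52257220: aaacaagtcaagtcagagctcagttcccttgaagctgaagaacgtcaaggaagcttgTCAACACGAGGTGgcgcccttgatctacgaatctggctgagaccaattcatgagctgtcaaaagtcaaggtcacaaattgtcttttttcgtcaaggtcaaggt
Between Hoxb9 and Hoxb8, chr11:96278861-96279060: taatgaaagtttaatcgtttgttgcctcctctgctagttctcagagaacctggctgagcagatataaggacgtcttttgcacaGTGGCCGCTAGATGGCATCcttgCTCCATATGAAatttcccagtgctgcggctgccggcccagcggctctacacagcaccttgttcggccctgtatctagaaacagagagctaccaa
Between Hoxc9 and Hoxc8, chr15:102987501-102987700: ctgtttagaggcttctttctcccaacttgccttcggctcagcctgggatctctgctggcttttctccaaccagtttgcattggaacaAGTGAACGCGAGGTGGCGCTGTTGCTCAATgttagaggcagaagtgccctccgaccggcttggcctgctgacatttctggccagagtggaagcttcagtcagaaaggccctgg
Between Hoxd9 and Hoxd8, chr2:74702301-74702500: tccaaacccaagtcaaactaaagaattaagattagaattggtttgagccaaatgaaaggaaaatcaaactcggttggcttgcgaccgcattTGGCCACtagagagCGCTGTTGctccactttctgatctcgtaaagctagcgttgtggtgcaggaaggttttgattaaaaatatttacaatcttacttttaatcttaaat
Between Hoxd8 and Hoxd4, chr2:74715821-74716060: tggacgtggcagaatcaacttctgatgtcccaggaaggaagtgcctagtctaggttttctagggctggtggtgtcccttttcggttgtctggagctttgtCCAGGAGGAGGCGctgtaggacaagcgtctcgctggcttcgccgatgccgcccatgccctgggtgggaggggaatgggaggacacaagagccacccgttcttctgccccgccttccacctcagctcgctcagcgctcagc

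Replicate 1 had 129779 peaks and replicate 2 had 71895, and 58515 regions were shared. Read depth is not stated, so the higher number of peaks in replicate 1 and its depth cannot be told apart. Promoter peaks of both libraries lay at 5 of 5 markers of forebrain excitatory neurons, 3 of 3 of dentate granule cells and 3 of 3 of pyramidal cells. Over all protein-coding genes the share was 59.0%, and lists of 3 to 5 genes are too short to be read against it. Markers of hindbrain and cerebellum had one at 0 of 4, with En2 alone showing a peak, of 0.601, in replicate 1. Peaks at markers of astrocytes (2 of 3), microglia (3 of 3), endothelium (1 of 3) and blood (1 of 3) were in replicate 1 only. Both libraries shared one at 1 of 3 GABAergic markers (Gad1), 1 of 3 oligodendrocyte markers (Mbp, 1.52 and 1.00) and 1 of 4 markers of meningeal fibroblasts (Col1a1, 1.51 and 1.92). A few cells with open Hox promoters and none at all cannot be told apart in bulk tissue.

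Hoxa7, the gene of paralog group 7 in the Hoxa cluster, was the only Hox gene with a promoter peak in both libraries. Its value was 1.47 in replicate 1 and 1.63 in replicate 2 (1.55 ± 0.115, SD, n = 2). The peak lay over the most upstream of its 4 start sites, at position 52221854 of chromosome 6, and its other start sites, from 52217452 to 52218711, had none in either library. Genome-wide, promoters with a peak had a median value of 3.10 in replicate 1 and 2.78 in replicate 2, with lower quartiles of 1.41 and 1.52. The Hoxa7 value therefore lay near the lower quartile of accessible promoters in both libraries.

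Hoxa10 and Hoxc5 had promoter peaks in replicate 1 only. Hoxa10, a posterior gene best known from limb and reproductive tract, had a value of 0.442, at the more upstream of its 2 start sites. Its lowest listed false discovery rate (FDR) was 0.0125. Hoxc5 had a value of 0.690, from a peak that ended 15 bp from its start site, and a weaker peak of 0.283 whose near edge was 506 bp away on the other side. Neither gene had a peak in replicate 2. The values of both genes in replicate 1 were below the lower quartile of accessible promoters.

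The other 36 genes spanned every paralog group. All 8 genes of groups 1 to 3, the anterior genes that pattern the hindbrain, had no promoter peak in either library. The same held for 13 of 15 genes of groups 4 to 8 and 15 of 16 genes of groups 9 to 13. By cluster, 10 of 10 Hoxb genes and 9 of 9 Hoxd genes had none in either library, as did 8 of 9 Hoxc and 9 of 11 Hoxa genes. The 39 genes had 62 distinct start sites, of which 1 had a peak in both libraries.

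Weaker signal was looked for in the deposited lists of single bases with an FDR under 0.05. Replicate 1 had no listed base in any of the 36 Hox promoters without a peak there, and replicate 2 had none in any of its 38. Among all genes without a promoter peak, 2.63% of 7994 in replicate 1 and 3.01% of 8661 in replicate 2 had at least 1 listed base. In the Hoxa7 promoter, 390 bases were listed in replicate 1 and 511 in replicate 2. At an FDR under 0.01, Hoxa10 dropped out and 2 Hox promoters remained in replicate 1 and 1 in replicate 2.

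Most Hox promoters had a CpG content at which other genes were usually open. Promoters rich in CpG dinucleotides are usually open in most tissues, so genes were ranked in quintiles by CpG observed over expected within 500 bp of a start site. No Hox gene was in the lowest quintile, where 3.68% of genes were open in both libraries. The Hox counts in the next quintiles were 0 of 5, against 26.1% of all genes, 0 of 13, against 78.6%, and 1 of 10, against 91.8%. In the highest quintile the count was 0 of 11 Hox genes, against 94.8% of 4371 genes.

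Those 11 genes were Hoxa4, Hoxa5, Hoxa9, Hoxa13, Hoxb5, Hoxb7, Hoxb9, Hoxc12, Hoxd8, Hoxd11 and Hoxd13. Hoxd8 had the highest CpG observed over expected of them, at 1.00. In the whole highest quintile, 226 genes had a promoter peak in only 1 library or in none, and Hox genes made up 4.87% of these. Only 123 genes of that quintile had none in either library, and Hox genes made up 8.94% of these, although they were 0.252% of the quintile. The bars by CpG quintile show this contrast between Hox genes and other genes of like composition.

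**Figure D1:**
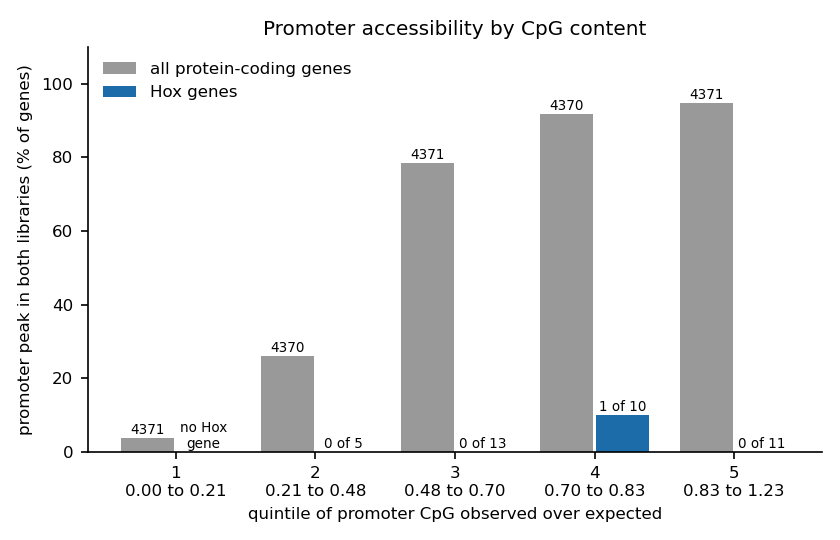
Percentage of protein-coding genes (grey) and Hox genes (blue) with a promoter peak in both libraries, by quintile of CpG observed over expected. Numbers above grey bars are genes per quintile, and those above blue bars are Hox genes with a peak of all Hox genes there; grey bars rise from 3.68% to 94.8%, while Hoxa7, in quintile 4, is the only Hox gene counted.

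Promoter footprints largely repeat the promoter peaks, because 93.8% of all footprints in replicate 1 and 92.6% in replicate 2 lay inside a peak. A promoter footprint in both libraries was present at 1 of 39 Hox genes, against 56.0% of all genes. Hoxa7 had 4 promoter footprints in replicate 1 and 3 in replicate 2. In replicate 1, Hoxa10 had 1 and Hoxc5 had 2.

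The clusters themselves were not empty, but they were sparse for DNA with so many genes. Across the 4 clusters, 492 kb in all, there were 22 peaks in replicate 1, 9 in replicate 2 and 9 shared regions. Per 100 kb this was 4.47 peaks in replicate 1, against 4.76 over the genome, and 1.83 in replicate 2, against 2.64. Shared regions numbered 1.83 per 100 kb, against 2.15 over the genome. In 774 tiles of 100 kb in which at least 5 protein-coding genes start, the median was 6 shared regions. In the 13 tiles in which at least 5 genes of the highest CpG quintile start, the median was 10. Of the 774 gene-dense tiles, 117 held no shared region.

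Each cluster held fewer shared regions per 100 kb than the median gene-dense tile. The value was 1.90 in Hoxa, 2.30 in Hoxb, 0.864 in Hoxc and 2.07 in Hoxd. Every replicate 2 peak inside a cluster overlapped a replicate 1 peak, whereas 13 replicate 1 peaks had no counterpart.

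**Figure D2:**
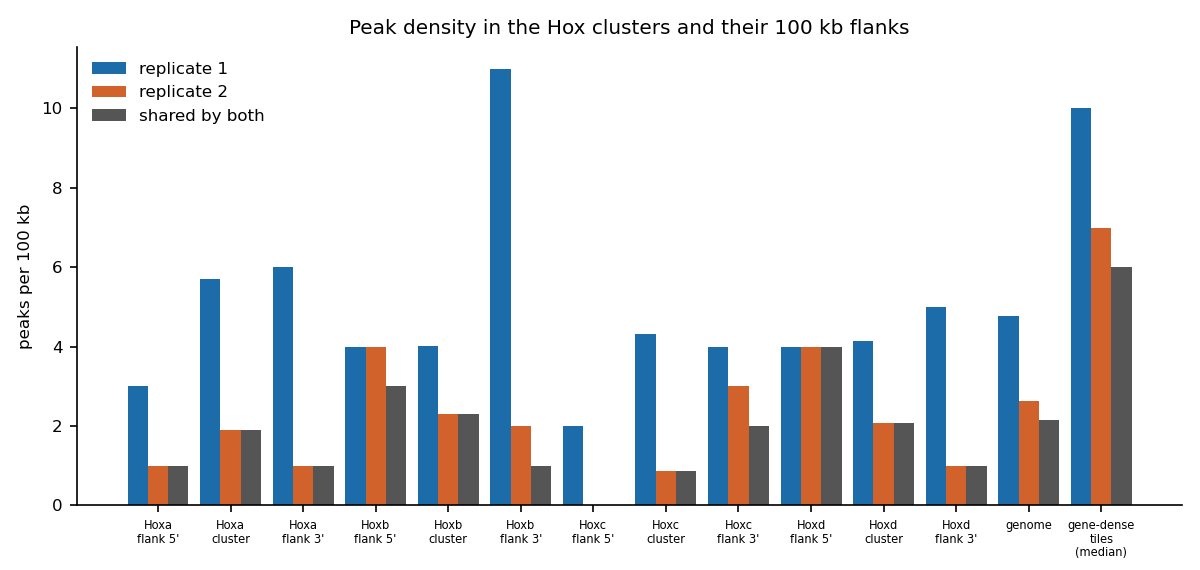
Peaks per 100 kb (vertical axis) in each Hox cluster and in the 100 kb flanks next to its highest paralog group (5′) and next to its lowest group (3′), for each library and for shared regions, beside the genome average and the median of gene-dense tiles. Shared regions in the 4 clusters lie between 0.864 and 2.30 per 100 kb, near the genome average of 2.15 and below the tile median of 6.

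Among the 9 shared regions, the strongest lay between Hoxb9 and Hoxb8, 2945 bp upstream of the Hoxb8 start site, at chr11:96278861-96279060. Its value was 2.06 in replicate 1 and 2.05 in replicate 2, above 88.3% and 84.2% of the peaks of those libraries. It is intergenic. The Hoxa7 region itself, at chr6:52221621-52221920, had values above 80.9% and 78.3% of peaks.

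Between Hoxc9 and Hoxc8 a region at chr15:102987501-102987700, 3007 bp upstream of Hoxc8, had a value of 1.19 in replicate 1 and 1.67 in replicate 2. The annotation places it in an intron of the long Hoxc5 gene model. Between Hoxd9 and Hoxd8 a region at chr2:74702281-74702500, 2225 bp upstream of Hoxd8, had 0.831 and 1.17. It is intergenic. The second shared region of the Hoxd cluster, at chr2:74715821-74716060, had 1.11 and 1.01. It lies over the end of the antisense transcript Hoxd3os1 that holds its start site, within introns of the Hoxd3 and Hoxd4 models.

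The remaining shared regions lay in Hoxa and Hoxb. Between Hoxb6 and Hoxb5, 1484 bp upstream of Hoxb5, the region at chr11:96301881-96302176 had 1.49 in replicate 1 and 0.949 in replicate 2, in an intron of the antisense transcript Hoxb5os. The region at chr6:52257061-52257240, 3652 bp downstream of the Hoxa13 start site and in an exon of the unclassified transcript 9530018H14Rik, had 0.849 and 0.877. A pair of weaker regions lay in the wide interval between Hoxb13 and Hoxb9. They had 0.513 and 0.433 at chr11:96228601-96228780, and 0.292 and 0.702 at chr11:96235001-96235200. The values of the last of these differed most in proportion between the libraries, whose scales may differ.

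By position, shared regions fell in 8 of the 35 intervals between neighbouring Hox genes, and 16 intervals held no peak of either library. The interval below paralog group 9 held a shared region in all 4 clusters. It runs from Hoxa9 to Hoxa7 in the Hoxa cluster, which has no Hoxa8, and from group 9 to group 8 in the others. Each gene was placed at its most downstream start site, so in Hoxa the region is the Hoxa7 promoter peak itself. Only in Hoxb, Hoxc and Hoxd does the region lie outside a Hox promoter. This interval was singled out after its values were seen. It held the strongest peak of replicate 2 in each of the 4 clusters, and of replicate 1 in each cluster except Hoxd, where the region between Hoxd8 and Hoxd4 was higher.

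**Figure D3:**
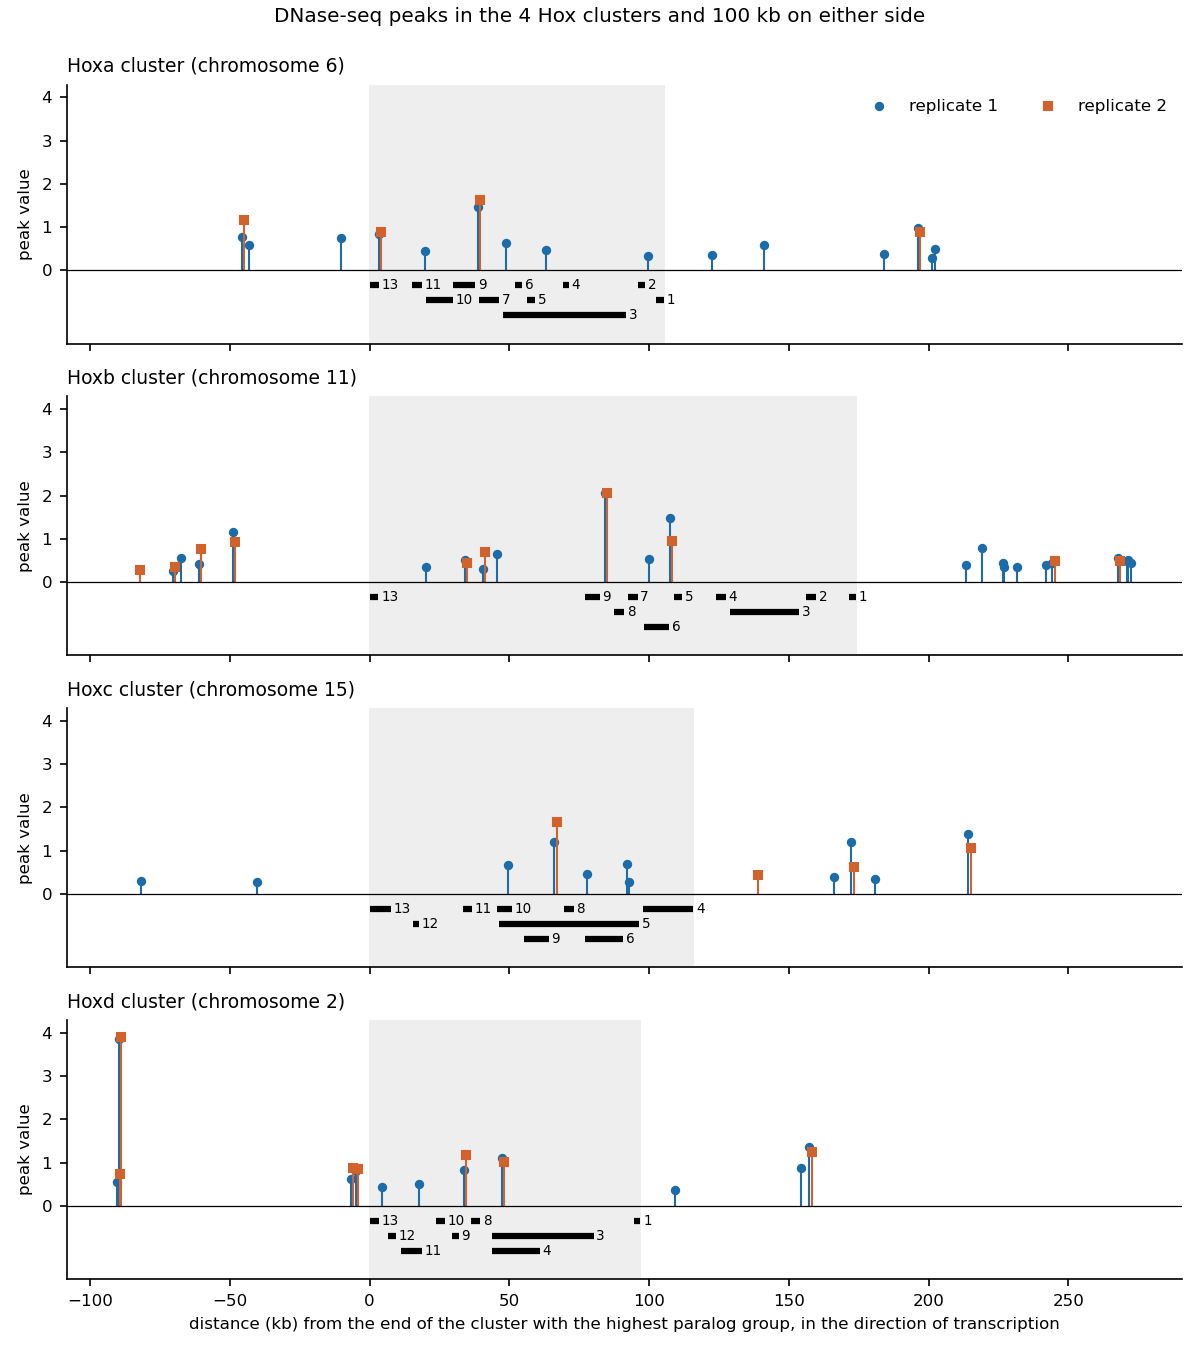
Peaks of replicate 1 (circles) and replicate 2 (squares) along each Hox cluster (grey) and 100 kb on either side; the horizontal axis is distance in kb from the end with the highest paralog group and the vertical axis is the peak value scaled per library. Black bars are Hox genes with their paralog group, and overlapping peaks are drawn slightly apart; the tallest pair, 3.86 and 3.91, is the Lnpk promoter beside Hoxd, and no pair inside a cluster exceeds the 2.06 and 2.05 between Hoxb9 and Hoxb8.

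Long stretches without any peak covered the anterior Hoxb genes and the posterior Hoxc genes. The longest in Hoxb was 105.7 kb, from below Hoxb6 to beyond Hoxb1, and held the start sites of 5 genes, Hoxb5 to Hoxb1. The longest over Hoxc was 89.5 kb and held Hoxc13, Hoxc12, Hoxc11 and Hoxc10. In Hoxd a stretch of 61.9 kb held the start sites of Hoxd4 and Hoxd1 and the 4 downstream start sites of Hoxd3, and in Hoxa one of 36.3 kb held Hoxa4, Hoxa2 and 1 of the 2 start sites of Hoxa3. The median distance between peaks over the genome was 8.56 kb. The longest gaps of Hoxb, Hoxc, Hoxd and Hoxa exceeded 98.1%, 97.3%, 94.5% and 86.4% of all gaps. This ranks a gap picked as the longest of its cluster against every gap, by number. Long gaps cover a larger part of the genome than their number shows, so these shares do not make such stretches rare. The Hoxc gap began in the flank before Hoxc13, and the Hoxd gap ended beyond Hoxd1.

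CTCF, the zinc finger protein that anchors chromatin loops with cohesin, was examined through its 12-letter core motif on either strand. The core was present in 0 of the 9 shared cluster regions, against 6.86% of the 58515 shared regions of the genome. It was also in 0 of the 22 replicate 1 peaks of the clusters, against 4.32% of all replicate 1 peaks. These regions and peaks are too few to be read against shares of a few percent. Allowing 1 mismatch, 3 of 9 shared cluster regions held the core, or 33.3%, against 20.2% of all shared regions. These were the Hoxa7 region, the region between Hoxb9 and Hoxb8 and the region between Hoxd9 and Hoxd8, all in the interval below group 9. A match describes letters and does not show binding.

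In the clusters there were 39 footprints in replicate 1 and 15 in replicate 2, and 9 overlapped in both. The letters AGNNGGC are a looser form of the last 7 of the core, AGRKGGC. They allow any base (N) at R (A or G) and at K (G or T). They overlapped 5 of these 9 footprints by at least 1 base on either strand. That is 55.6%, against 25.6% of 55804 such footprints over the genome. Among whole shared regions the share was 77.8% in the clusters and 70.0% over the genome. Footprint width, on which such overlap depends, was not matched. These letters were chosen after the sequences were seen, so the 55.6% cannot be read as an excess over the genome. In the printed sequences they appear as AGGTGGC between Hoxa11 and Hoxa13 and between Hoxc9 and Hoxc8, and as AGATGGC between Hoxb9 and Hoxb8. Between Hoxd8 and Hoxd4 they are AGGAGGC, with an A where the core allows only G or T. At the Hoxa7 start site the letters are AGATGGC on the other strand and overlap the footprint by its last capital.

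Of the other motifs searched, each is given as a count of the 9 shared cluster regions, too few to be read against a genome share of a few percent. TAATTA, the homeodomain core, was in 0 of 9, against 4.12% of all shared regions, and TGATTNAT, the site of Hox with Pbx, in 0 of 9, against 2.72%. TGACAG, the site of Meis factors, which are also homeodomain proteins, was in 2 of 9, or 22.2%, against 20.9%. GGGCGG, the GC box of Sp factors, was in 3 of 9, or 33.3%, against 15811 of the 58515 shared regions of the genome. TGANTCA, the AP-1 site, was in 0 of 9, against 9.72%. CAGATGG, an E-box of neuronal factors, was in 1 of 9, or 11.1%, against 15.5%. TTCAGCACC, from the site of the repressor REST, and the direct repeat of retinoic acid receptors were in 0 of 9, against 0.443% and 0.0222%. All were searched on both strands, and CAGATGG can share letters with the CTCF core.

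Noncoding genes of the clusters were looked at in the same way. Of 19 long noncoding RNA genes starting inside a cluster, 2 had a promoter peak in both libraries, against 23.0% of 13012 such genes over the genome. These were Hoxd3os1, with 1.11 and 1.01, and 9530018H14Rik, with 0.849 and 0.877, each through a shared region described above. The annotation leaves 9530018H14Rik unclassified, and it was counted here as long noncoding. Hotair, Hotairm1 and Haglr, and Hottip just outside the Hoxa cluster, had none in either library. Of 7 microRNA genes, among them Mir10a, Mir10b and Mir196b, 0 had one in both, against 12.3% of 2202 over the genome. Mir615, which lies in Hoxc5, had the 0.283 peak of replicate 1.

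In the 100 kb flanks there were 13 shared regions, 8 next to the highest paralog groups and 5 next to the lowest. On the side of the highest groups replicate 1 had 13 peaks and replicate 2 had 9. On the other side replicate 1 had 26 and replicate 2 had 7, and 11 of those 26 lay beyond Hoxb1. The strongest flank region was the promoter of Lnpk, an endoplasmic reticulum gene 88.9 kb from the Hoxd cluster, with 3.86 and 3.91. On the other side of Hoxd the promoter of Mtx2, a mitochondrial import gene, had 1.35 and 1.24.

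The other protein-coding neighbours were weaker or had no peak. Ttll6, a tubulin-modifying enzyme gene, had 0.416 and 0.764. Skap1 had 0.495 in replicate 1 only, and Calcoco2 had 0.268 in replicate 2 only. Evx1 and Evx2, the homeobox genes that neighbour Hoxa and Hoxd, had none in either library. So among the 7 coding neighbours, 3 had a promoter peak in both libraries, against 59.0% of all genes. Neither of the homeobox genes did, and 7 genes are too few to be read against that share. The 3 other protein-coding genes that start inside the clusters had none in either library.

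Distal shared regions of the flanks had values like those in the clusters. Upstream of Hoxd13, near Evx2, the region at chr2:74663661-74663840 had 0.805 and 0.846. Its neighbour at chr2:74661901-74662100 had 0.619 and 0.877, lower in replicate 1 and higher in replicate 2. The region 7408 bp upstream of Evx1, at chr6:52305981-52306200, had 0.778 and 1.16. On the other side of Hoxa, at chr6:52064161-52064600, values were 0.982 and 0.877. Beyond Hoxc4, the regions at chr15:103135429-103135920 and chr15:103093721-103093960 had 1.40 and 1.06, and 1.19 and 0.629. In an intron of Ttll6, chr11:96145701-96145900 had 1.15 and 0.929, and beyond Hoxb1, chr11:96438894-96439011 had 0.433 and 0.485. The flank next to Hoxc13 held no shared region.

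Most listed genes that act on Hox clusters had an open promoter, as had 59.0% of all genes and 94.8% of the highest CpG quintile. Polycomb repressive complex 2, which methylates histone H3 at lysine 27, had promoter peaks shared by the libraries at 10 of 11 genes. Its highest promoters by the mean of both libraries were Jarid2, with 11.6 and 6.48 (9.05 ± 3.64, SD, n = 2), and Rbbp4, with 7.37 and 3.89 (5.63 ± 2.46, SD, n = 2). In replicate 2, Ezh2, at 4.88, was among the genes above Rbbp4. Phf19 had 0.743 in replicate 1 only. Polycomb repressive complex 1, which ubiquitinates histone H2A and compacts chromatin, had one at 16 of 16, with the highest means at Cbx8, with 11.9 and 6.95, and Cbx6, with 7.59 and 5.64. In replicate 2, Pcgf1, at 5.76, was above Cbx6.

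The opposing MLL complexes and lysine 27 demethylases had one at 9 of 9 genes. Kdm6a, a demethylase, had 15.8 and 9.74, and Men1, the MLL subunit menin, had 8.16 and 4.67. CTCF and cohesin genes had one at 8 of 8, led by Stag1, with 8.90 and 7.26, and Smc3, with 8.52 and 6.14. TALE homeodomain cofactors, which bind DNA together with Hox proteins, had one at 8 of 9. Pknox1 had 10.4 and 5.77, and Meis2 had 1.23 in replicate 1 only. These lists are read against the 59.0% of all genes. The CpG content of the listed promoters was not compared, so no excess over genes of like CpG content can be read from them. An open promoter says nothing of what the protein does at Hox DNA.

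Some listed upstream inducers of Hox genes had a promoter peak and others had none. Retinoic acid genes had one, shared by the libraries, at 7 of 14, against 59.0% of all genes. With the shorter peak lists the count was 4 of 14, against 53.2%. The receptors Rxrb, with 7.73 and 6.02, and Rarg, with 3.25 and 2.14, were highest, and all 6 receptor genes had one in both. Of the enzymes and binding proteins only Aldh1a2 had one in both, with 0.256 and 0.402, and Aldh1a3, which makes retinoic acid, and Crabp1, which binds it in the cell, had none. Axial regulators had one at 3 of 7, against 59.0% of all genes, with Egr2 at 3.56 and 2.48. Lists of 7 and 14 genes are too short to be read against these shares. Egr2 is a hindbrain segment regulator that is also used in neurons. Cdx1 and Cdx2, posterior activators of Hox genes, had none.

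Other homeobox genes fell on both sides. Of 10 other genes of the Hox gene class, called ANTP, 1 had a promoter peak in both libraries, against 59.0% of all genes. It was Gsx1, with 0.681 and 0.640, which the shorter lists do not hold. En1 and Evx1 were among 7 with none. Homeobox genes used in the forebrain had one at 13 of 17, against 59.0% of all genes. In replicate 1 alone 17 of 17 had one, against 63.4%. With the shorter, stricter peak lists the count was 8 of 17, against 53.2% of all genes. Pou3f3, a neuronal POU factor, had 8.58 and 5.07. No difference between these lists was tested, since the data hold 1 group.

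**Figure D4:**
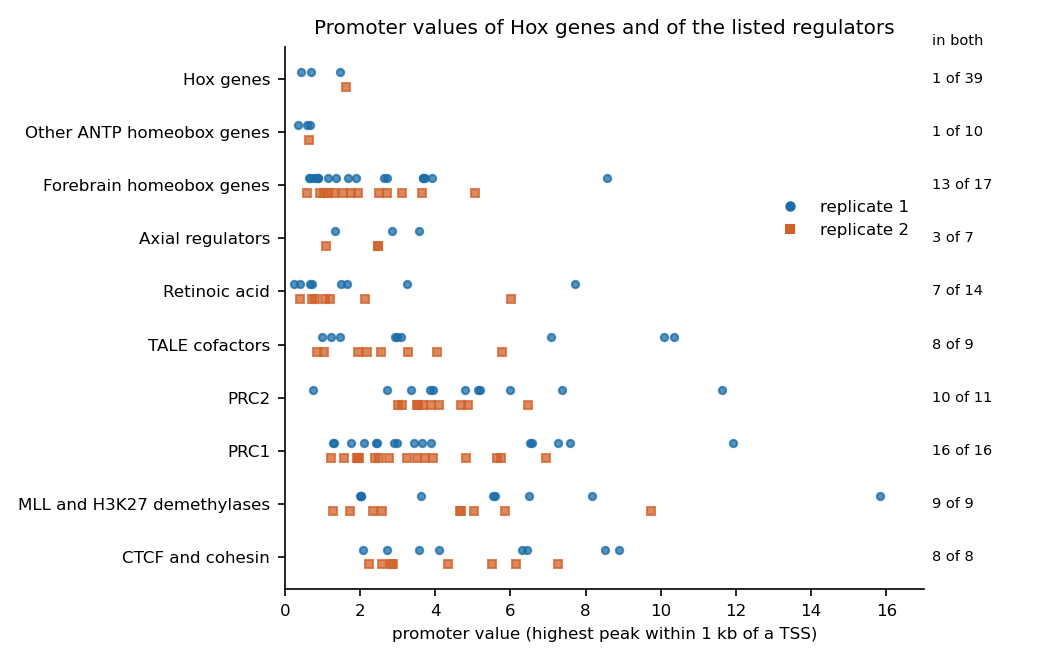
Promoter values (horizontal axis, scaled per library) of the Hox genes and 9 lists of related genes, with replicate 1 as circles and replicate 2 as squares; genes without a promoter peak are not drawn, and the numbers at the right are genes with a peak in both libraries of all listed. Hox genes stand at 1 of 39 with no value above 1.63, and other ANTP genes at 1 of 10, while chromatin regulators reach 15.8.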

How the data were processed

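Peaks, footprints and per-base lists were deposited separately for each library on mm10, per the labels and the notes deposited with the files. For the aligner, peak caller and depth, nothing is given in the sources used here. The peak signal was scaled to each library by the authors, on a scale that is not stated, so levels are compared within a library. Means over both libraries choose which genes are named. The SDs printed for Hoxa7, Jarid2 and Rbbp4 hold any difference in scale as well as spread. The deposited FDR (q-value) lists hold only bases under 0.05. Footprint lists carry a constant 0.01, read as their FDR threshold, and only their positions were used.

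The longer of the deposited peak lists was used. A promoter was 1 kb on either side of each TSS of protein-coding transcripts of GENCODE M21. The 85 genes with no such transcript were left out. Shared regions are overlapping peaks of both libraries (at least 1 bp). Sequences came from RefSeq GRCm38.p6. Python 3.11.15, NumPy 2.4.6, pandas 2.3.3 and Matplotlib 3.10.9 were used, and the counting was tested on simulated data. With 1 group of 2 libraries no test was made: counts stand beside the same counts over all genes or regions. Named were all Hox genes with a peak, coding neighbours within 100 kb, shared cluster regions, the 2 strongest shared regions of each flank, and per list the 2 genes with the highest mean and the first 2 in alphabetical order without a peak. A few of the genes this rule names are not reported here. The members and lists were chosen with earlier results of these data known.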

Additional observations from a re-analysis of the deposited data

How the results depend on the processing

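The count of 1 Hox promoter open in both libraries was the same with the shorter peak lists, with windows of 500 bp and with equal numbers of peaks. With windows of 2.5 kb it was 3, through Hoxb5 and Hoxd8, against 61.9% of all genes. With either library alone it ranged from 1 to 3 promoters. Peaks of 1 library, in place of shared regions, numbered 9 to 22 in the clusters and 16 to 39 in the flanks. Cluster footprints of 1 library numbered 15 to 39, and core matches stayed at 0. Listed regulators with a peak, 75 in both libraries, ranged from 75 to 84. Flank regions, 13 as reported, were 4 with flanks of 50 kb, 45 with 200 kb and 8 with the shorter lists. Allowing 1 mismatch in the CTCF core, an alternative chosen after seeing the data, gave 3 regions in place of 0. Shared cluster regions numbered 6 to 7 under the shorter lists, a reciprocal overlap of 50% and equal numbers of peaks. The causes of these shifts were not tested, apart from those set by window or flank length. Depth is unknown, so an absent peak means that none was called at this depth. No paired analysis was possible because the series has 1 group.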
